A study of Bos taurus with 12 samples.

Results

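Homologous recombination and the Fanconi anemia pathway repair the DNA lesions that are most dangerous to a replicating cell. Homologous recombination mends a broken chromosome by resecting its ends and copying the intact sister chromatid, so it acts mainly after the DNA has been replicated. The Fanconi pathway detects crosslinks between the strands at a stalled fork, attaches ubiquitin to FANCD2 and FANCI, and hands the cut lesion to recombination. The genes of both pathways are largely kept for dividing cells, whereas the nuclei of a muscle fibre have left the cell cycle for good.

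The genes described here were 39 named members of these pathways, taken by symbol from the 18436 genes of the expression table. They were ordered by role into 6 genes of end sensing and resection, 4 BRCA mediators, 8 genes of strand exchange, 7 genes of the Fanconi core complex and its ubiquitin-conjugating enzyme, 3 genes of the FANCD2-FANCI complex with BRIP1, 5 genes of damage signalling, and 6 genes that dissolve or cut recombination intermediates. The cells were primary myoblasts of Qinchuan cattle, taken from longissimus dorsi muscle at birth and not genetically modified. The GM group was harvested as proliferating myoblasts at 80% confluence in growth medium with 20% fetal bovine serum. The DM group was harvested as myotubes after 4 days in differentiation medium with 2% horse serum. Both media were based on DMEM/F12 with penicillin and streptomycin. There were 3 cultures per group, from each of which an input library of poly(A) RNA was made together with a library of fragments precipitated with an antibody against N6-methyladenosine (m6A), the most common internal mark of mRNA. The methods of the study describe the cells as coming from a single newborn animal, so the p-values below measure the spread between cultures and not between animals.

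The levels of mRNA are given in FPKM, fragments scaled to transcript length and library size, which can be compared between genes because they are per length. A fold change is the difference in mean log2(FPKM + 1) between DM and GM, tested with limma over the 12302 genes whose mean reached 0.5 FPKM, and a gene was called at a Benjamini-Hochberg adjusted p under 0.05 and a change over 1.5-fold on that scale. The scale understates the change of genes near 1 FPKM. The plain ratio of the mean FPKM is therefore also given for called genes, and as a range for genes that passed only the adjusted p. Values within a group correlated at r of 0.9947 to 0.9973 over all genes, and the summed FPKM of all genes was 415740 to 434458 in GM and 386437 to 390827 in DM. The satellite and myoblast genes PAX7, MYF5 and MYOD1 fell and the muscle genes CKM, ACTN2, MYH3 and TNNT1 rose from GM to DM. In the same list MYOG rose from 197 to 243 FPKM, within 1.5-fold (limma adjusted p = 0.0046). DES, at 453 and 488.5 FPKM, and MYMK, at 41.1 and 47.3 FPKM, did not pass. MYOG and MYH3 thus stood at 197 and 273 FPKM already in the GM cultures. The fibroblast genes summed to 13591 to 13832 FPKM in GM and 13890 to 14659 in DM, and the adipocyte, endothelial and immune lists each summed to 2.01 FPKM or less in every library. Most of the fibroblast sum was COL1A1, at 6791 and 7420 FPKM in GM and DM, and COL1A2, at 5757 and 5496 FPKM. Of the 7 fibroblast genes, 2 were higher and 1 lower in DM at an adjusted p under 0.05 (limma), and 4 did not pass.

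Of the 39 repair genes, all of which passed the filter on low values, 8 fell and none rose from myoblasts to myotubes. They were FANCD2, RAD51AP1, FANCI, BRCA1, RAD54L, RMI2, CHEK1 and EXO1. Among all genes tested, 6.88% were called lower and 4.89% higher in DM, whereas 20.5% of the repair genes were called lower. These counts include EXO1, and those by adjusted p also XRCC2, which passed the filter on low values only through GM. With a mean of at least 1 FPKM required, which leaves both out, 7 of 34 repair genes and 792 of 11336 genes were called lower. At an adjusted p under 0.05 without a fold minimum, 20 of the 39 were lower and none was higher, against a background of 26.7% lower and 16.1% higher. For the 12 that passed only the adjusted p, the plain ratio of GM over DM ran from 1.29 to 2.42. It was over 1.5 for XRCC2 (2.42), RAD54B (2.07), BRIP1 (1.79), CHEK2 (1.73), BRCA2 (1.66), AUNIP (1.63), BLM (1.60) and RAD51C (1.52). All 3 GM values lay above all 3 DM values for 20 of the 39 genes, compared with 33.0% of all genes, and the reverse held for 1, RAD51D, compared with 21.1%. In the other 18 genes the groups overlapped. The median log2 fold change was -0.32 over the 39 genes and -0.05 over all genes tested.

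**Figure D1:**
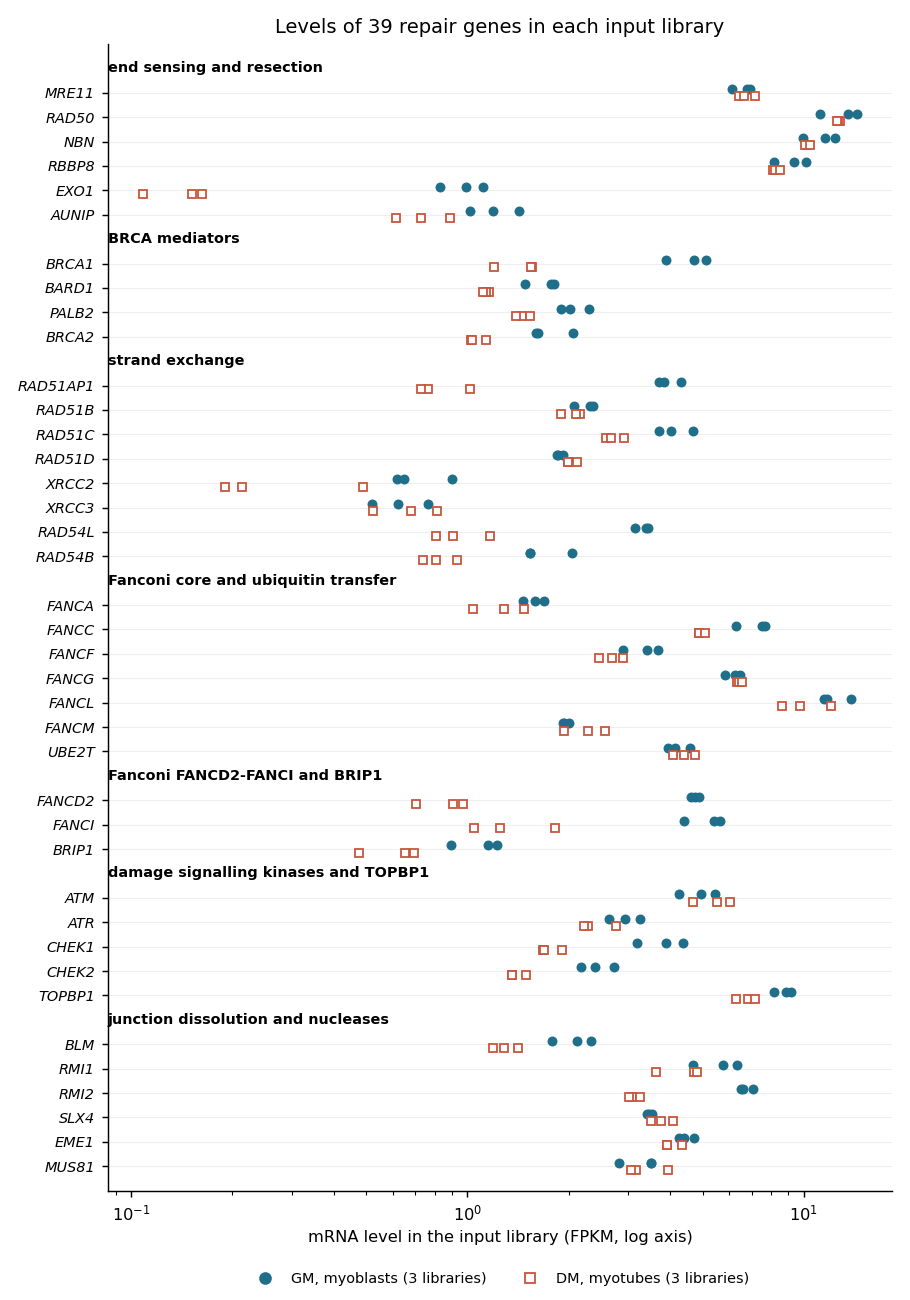
The level of each of the 39 repair genes (FPKM, log axis) is plotted for the 3 GM libraries (filled circles) and the 3 DM libraries (open squares), ordered by role. The groups are apart for 20 genes that are higher in GM and for RAD51D, with the widest gaps at EXO1, FANCD2, RAD51AP1, FANCI, RAD54L and BRCA1, while genes such as MRE11, FANCG, UBE2T and MUS81 overlap.

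The summed level of the 39 genes was 173, 176 and 154 FPKM in the GM libraries and 127, 122 and 132 FPKM in the DM libraries. Every GM library was above every DM library, and the third GM library was the lowest of its group. Levels in the myoblasts ran from 0.635 FPKM for XRCC3 to 13.0 FPKM for RAD50, so that the whole set was expressed at low to moderate level. In these bulk cultures, fewer cells that express a gene and less of its RNA per cell cannot be told apart. All 14 proliferation markers were lower in DM at an adjusted p under 0.05 (limma), 11 of them by over 1.5-fold. Their summed level was 186 to 198 FPKM in GM and 69.4 to 75.4 FPKM in DM, with MKI67, TOP2A and CCNB1 falling the most, at log2 fold changes of -3.32, -3.26 and -3.09. Their part in the fall of the repair genes was not tested.

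The steepest fall on the log2 scale was that of FANCD2, and all 3 genes of its group were lower at an adjusted p under 0.05. FANCD2 (chr22:16737949-16789121, minus strand, in the ARS-UCD1.2 build), the protein that is ubiquitinated at a crosslink, stood at 4.88, 4.76 and 4.62 FPKM in the GM libraries and at 0.702, 0.967 and 0.906 FPKM in the DM libraries. Every DM value lay below 1 FPKM and every GM value above 4 FPKM. Its mean fell from 4.75 ± 0.129 to 0.858 ± 0.139 FPKM (SD, n = 3), which was 5.54-fold, with a log2 fold change of -1.63 (SE 0.08, limma adjusted p = 2.0e-06). FANCI (chr21:20722980-20787646, plus strand), its partner in the clamp, had 5.63, 5.41 and 4.40 FPKM in GM and 1.04, 1.82 and 1.25 FPKM in DM. The groups were apart although the DM values spread more than those of FANCD2. The mean of FANCI fell 3.75-fold, from 5.15 ± 0.657 to 1.37 ± 0.403 FPKM, with a log2 fold change of -1.38 (SE 0.13, limma adjusted p = 8.5e-05). BRIP1, the helicase also known as FANCJ that binds BRCA1, was low in both states, at 1.09 ± 0.174 FPKM in GM and 0.607 ± 0.115 FPKM in DM. Its log2 fold change of -0.38 passed the adjusted p (0.015, limma) but not the fold on that scale, while its plain ratio was 1.79.

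No gene was called among those of the set that belong to the upstream core complex, which transfers ubiquitin to FANCD2 and FANCI, or encode its E2 enzyme. The set does not hold every gene of this complex. Of these 7 genes, which are FANCA, FANCC, FANCF, FANCG, FANCL, FANCM and UBE2T, only FANCC was lower at an adjusted p under 0.05. FANCC, a structural subunit, went from 7.16 ± 0.772 to 4.94 ± 0.112 FPKM, a log2 fold change of -0.45 (limma adjusted p = 0.0023), and its groups did not overlap. FANCL, the ubiquitin ligase of the complex and its most abundant member, had 13.8, 11.7 and 11.4 FPKM in GM and 9.72, 8.63 and 12.1 FPKM in DM. The third DM library lay above 2 of the GM libraries, and the log2 fold change of -0.27 did not pass (limma adjusted p = 0.10). UBE2T, the E2 enzyme that works with FANCL, had the smallest change of the group, with 4.23 ± 0.325 FPKM in GM and 4.41 ± 0.330 FPKM in DM. The helicase FANCM, which recruits the complex to DNA, had the largest difference upward, 0.14 on the log2 scale, which did not pass (limma adjusted p = 0.24). FANCM overlaps another gene on the opposite strand, as do FANCA (ZNF276), FANCL (VRK2), FANCI (POLG), RAD51C (TEX14), CHEK2 (HSCB) and MUS81 (EFEMP2). The libraries kept strand, but the methods of the study do not say whether the FPKM values used it. Within a library, FANCD2 and FANCI together amounted to 27.3%, 27.3% and 26.2% of the summed FPKM of the 7 core genes in GM. In DM they amounted to 5.53%, 9.36% and 6.14%, a within-library ratio that no scaling between libraries can alter.

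**Figure D2:**
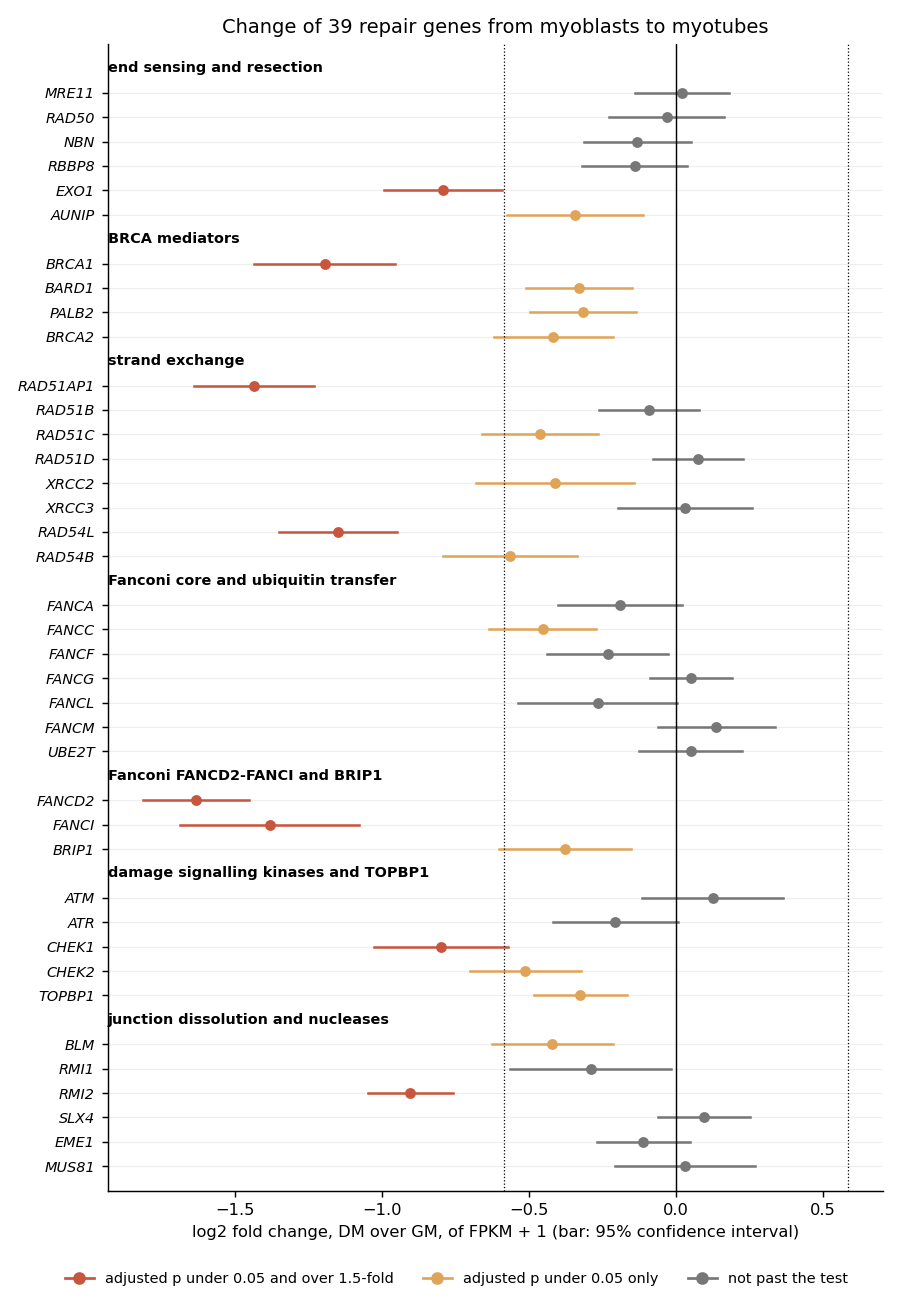
The log2 fold change of FPKM + 1, DM over GM, is plotted for the 39 repair genes with its 95% confidence interval, and dotted lines mark 1.5-fold. The points of the 8 called genes lie left of the dotted line, and they belong to 6 of the 7 roles, with FANCD2 furthest left and none in the Fanconi core.

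The 4 BRCA mediators, which prepare resected DNA for strand exchange, were all lower in DM at an adjusted p under 0.05, and 1, BRCA1, was called. BRCA1 (chr19:43069372-43139018, minus strand), a ubiquitin ligase that promotes resection and recruits PALB2 and BRCA2, had 4.70, 5.13 and 3.90 FPKM in GM. In DM it had 1.199, 1.56 and 1.54 FPKM. The lowest myoblast culture was more than 2-fold above the highest myotube culture. The mean fell from 4.58 ± 0.626 to 1.43 ± 0.203 FPKM, or 3.19-fold, with a log2 fold change of -1.19 (SE 0.10, limma adjusted p = 5.1e-05). BRCA2, the main mediator of filament assembly, was 1.76 ± 0.261 FPKM in GM and 1.06 ± 0.0639 FPKM in DM, a log2 fold change of -0.42 (limma adjusted p = 0.0060). PALB2, the bridge between BRCA1 and BRCA2, changed least, by -0.32 (limma adjusted p = 0.012). BARD1, the obligate partner of BRCA1 in the ligase, was lower by -0.33. The ratio of BRCA1 to BARD1 was 2.60, 2.90 and 2.62 in the GM libraries and 1.04, 1.38 and 1.38 in the DM libraries, so the partners were closer to equal FPKM in myotubes.

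Among the 8 genes of strand exchange, 2 were called lower and 5 were lower at an adjusted p under 0.05. RAD51AP1 (chr5:105578163-105595893, minus strand), which stimulates strand invasion, had 4.31, 3.85 and 3.72 FPKM in GM and 0.762, 0.730 and 1.02 FPKM in DM. It fell 4.73-fold, from 3.96 ± 0.309 to 0.837 ± 0.158 FPKM, with a log2 fold change of -1.43 (SE 0.09, limma adjusted p = 7.6e-06). RAD54L (chr3:99817882-99844140, minus strand), a motor protein that drives the pairing of DNA strands, had 3.45, 3.41 and 3.15 FPKM in GM and 0.906, 0.804 and 1.16 FPKM in DM. In both genes the groups were far apart and the third DM library was the highest of the myotubes. RAD54L fell 3.48-fold, from 3.33 ± 0.162 to 0.958 ± 0.185 FPKM, with a log2 fold change of -1.15 (SE 0.09, limma adjusted p = 2.4e-05).

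RAD54B, the relative of RAD54L, lay just outside the call with a log2 fold change of -0.56 (SE 0.10, limma adjusted p = 0.0022), from 1.71 ± 0.299 to 0.825 ± 0.0995 FPKM. The gene FSBP lies within RAD54B on the same strand, so reads may be shared between them. RAD51C and XRCC2, which belong to the paralog complexes of recombination, also passed the adjusted p (limma) without the fold on the log2 scale. Their log2 fold changes were -0.46 and -0.41, and their plain ratios were 1.52 and 2.42. The call of XRCC2 was lost in 3 of the 6 fits that each left out 1 library. The other paralogs did not pass. RAD51D had 1.92, 1.85 and 1.86 FPKM in GM and 2.12, 1.99 and 1.99 FPKM in DM, the only repair gene with every DM value above every GM value, yet the difference of 0.08 did not pass (limma adjusted p = 0.40). XRCC3 had the smallest change of the group, at 0.635 ± 0.121 and 0.672 ± 0.143 FPKM, and RAD51B lay between them and the genes that passed, with -0.09. Of RAD51B, RAD51C, RAD51D and XRCC2, which form one complex, RAD51C and XRCC2 therefore passed the test and the other members did not.

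Of the 6 genes of end sensing and resection, 1 was called lower. EXO1 (chr16:34954133-35000907, minus strand), the exonuclease of long-range resection, had 0.992, 1.11 and 0.831 FPKM in GM and 0.163, 0.151 and 0.109 FPKM in DM. Its mean dropped from 0.979 ± 0.141 to 0.141 ± 0.0284 FPKM, the widest plain ratio of the set at 6.94-fold, while the log2 fold change on FPKM + 1 was -0.79 (SE 0.09, limma adjusted p = 1.9e-04). EXO1 and XRCC2 were the 2 repair genes whose DM mean lay below 0.5 FPKM, so they passed the filter only through the group where they were high, and their direction is no independent support. EXO1 was the least abundant gene in the myotubes, and it is not tested when a mean of at least 1 FPKM is required, which leaves 7 called genes of 34. AUNIP, which helps to place resection factors at breaks, was lower by -0.34 (limma adjusted p = 0.026). That call was lost in 4 of the 6 fits that each left out 1 library.

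No gene of the sensor complex that first binds a broken end passed the test. MRE11, its nuclease, was 6.61 ± 0.443 FPKM in GM and 6.73 ± 0.387 FPKM in DM, a log2 fold change of 0.02 with a 95% confidence interval of -0.14 to 0.18. RAD50, which tethers the ends, was 13.0 ± 1.64 and 12.7 ± 0.111 FPKM, a change of -0.03 with an interval of -0.23 to 0.17. NBN and RBBP8, the adaptor of the complex and the cofactor of its nuclease, had log2 fold changes of -0.13 and -0.14 and overlapping groups. The intervals of all 4 genes lay inside 1.5-fold in either direction. The ratio of MRE11 to RAD50 was 0.510 ± 0.0362 in GM and 0.531 ± 0.0270 in DM. Without the third GM library, which was low for many of these genes, NBN and RBBP8 passed the adjusted p (limma) at log2 fold changes of -0.21 and -0.22.

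Of the 5 genes of damage signalling, CHEK1 alone was called. CHEK1 (chr29:29033507-29051869, plus strand), the effector kinase of the replication checkpoint, had 3.90, 4.37 and 3.19 FPKM in GM and 1.68, 1.69 and 1.91 FPKM in DM. The groups did not overlap, and the mean fell 2.17-fold, from 3.82 ± 0.592 to 1.76 ± 0.129 FPKM (log2 fold change -0.80, SE 0.10, limma adjusted p = 3.8e-04). CHEK2, the effector kinase of the double-strand break response, passed the adjusted p only, at 2.43 ± 0.278 and 1.402 ± 0.0751 FPKM with a log2 fold change of -0.51 (limma adjusted p = 0.0015). TOPBP1, the activator of ATR, was lower by -0.33 (limma adjusted p = 0.0059) and remained the most abundant gene of the group at 6.76 ± 0.428 FPKM in DM. The apical kinases did not pass. ATM, which responds to breaks, had 4.96, 5.45 and 4.25 FPKM in GM and 5.53, 4.68 and 6.05 FPKM in DM, with a log2 fold change of 0.13 (95% confidence interval -0.12 to 0.37). ATR, which responds to single-stranded DNA, had a log2 fold change of -0.21 (limma adjusted p = 0.11).

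The last group dissolves or cuts the joint molecules left by strand exchange, and 1 of its 6 genes was called. RMI2 (chr25:9989195-9994633, plus strand), a stabilising subunit of the dissolvasome with BLM and RMI1, had 7.07, 6.58 and 6.52 FPKM in GM and 3.09, 3.27 and 3.03 FPKM in DM. Both groups were tight, and the mean fell 2.15-fold, from 6.72 ± 0.304 to 3.13 ± 0.126 FPKM (log2 fold change -0.90, SE 0.06, limma adjusted p = 1.5e-05). BLM, the helicase of the complex, was lower by -0.42 (limma adjusted p = 0.0062), from 2.08 ± 0.280 to 1.30 ± 0.112 FPKM. RMI1 had a log2 fold change of -0.29 that did not pass (limma adjusted p = 0.082). RMI2 was more abundant than RMI1 in every GM library, with ratios of 1.23, 1.04 and 1.39, and less abundant in every DM library, with ratios of 0.656, 0.899 and 0.630. The nuclease genes did not pass: MUS81 had a log2 fold change of 0.03, its partner EME1 -0.11, and the scaffold SLX4 0.10. EFEMP2, which overlaps MUS81 on the opposite strand, had 70.1 FPKM in GM and 75.4 FPKM in DM, far above MUS81.

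**Figure D3:**
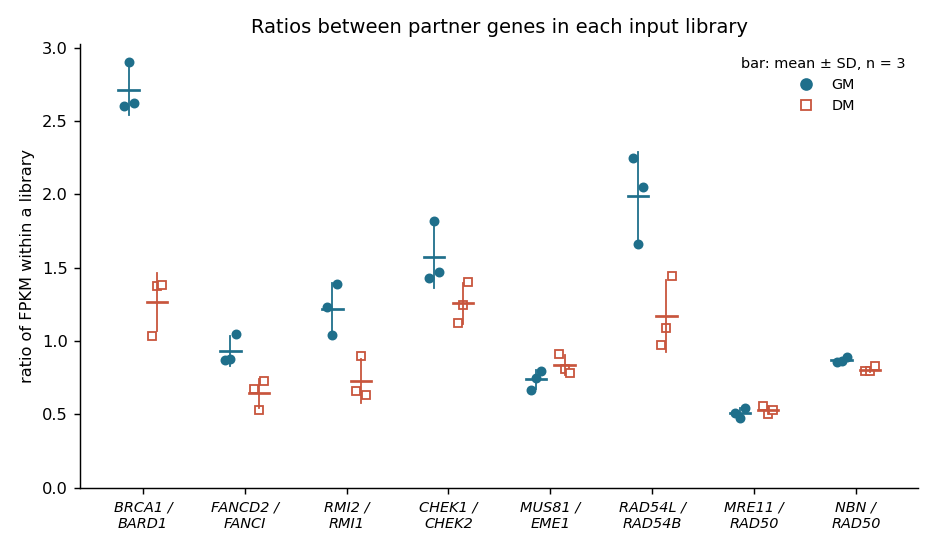
The ratio of FPKM between partner genes within 1 input library is plotted for GM (filled circles) and DM (open squares), with the mean and SD of 3 libraries. The ratio of BRCA1 to BARD1 runs from 2.60 to 2.90 in GM and from 1.04 to 1.38 in DM, whereas the ratios of MRE11 to RAD50 and of MUS81 to EME1 overlap between the groups.

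The partner ratios were chosen after the levels had been seen and carry no test. Besides the pairs already given, FANCD2 over FANCI was 0.933 ± 0.103 in GM and 0.643 ± 0.101 in DM, CHEK1 over CHEK2 was 1.57 ± 0.213 and 1.26 ± 0.139, and RAD54L over RAD54B was 1.99 ± 0.299 and 1.17 ± 0.246. In these 3 pairs all GM ratios lay above all DM ratios. The ratio of NBN to RAD50 was higher in every GM library as well, again by a small margin, at 0.868 ± 0.0181 against 0.805 ± 0.0193. MUS81 over EME1 was 0.738 ± 0.0669 and 0.834 ± 0.0672, with overlapping values.

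Other genes of recombination and the Fanconi pathway had a similar share of called falls. Of 53 tested, 12 (22.6%) were called lower and 2 higher, against 20.5% and none of the 39 genes, and 19 and 4 passed the adjusted p, with a median log2 fold change of -0.05, against -0.32 for the 39 genes. Among those that passed the adjusted p, the largest falls were of CENPS, a histone-fold protein that binds FANCM, at -1.43, of MND1, a cofactor of meiotic strand exchange, at -1.22, and of SEM1, a small BRCA2-binding protein, at -1.21. SEM1 had 115, 34.8 and 40.0 FPKM in the GM libraries, so its first GM library stood apart, and 21.7, 22.9 and 24.6 FPKM in DM. The largest rises that passed it were of REV3L, the catalytic subunit of a translesion polymerase, at 1.00, of RNF168, a ubiquitin ligase at breaks, at 0.65, and of RAD52, a mediator of annealing, at 0.35. RNF168 had 4.63, 2.37 and 2.01 FPKM in the GM libraries and 4.88 to 5.19 FPKM in DM.

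None of 17 genes of non-homologous end joining, the pathway that rejoins breaks without a template and works outside replication as well, was called in either direction. By the adjusted p alone, 3 were lower (RIF1 at -0.32, XRCC5 at -0.29 and TP53BP1 at -0.25 on the log2 scale) and 1 was higher, the ligase cofactor XRCC4 at 0.44. Their median of -0.05 equalled that of all genes at this precision. No test of the difference between the lists was made, since the 39 genes were picked with results known.

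**Figure D4:**
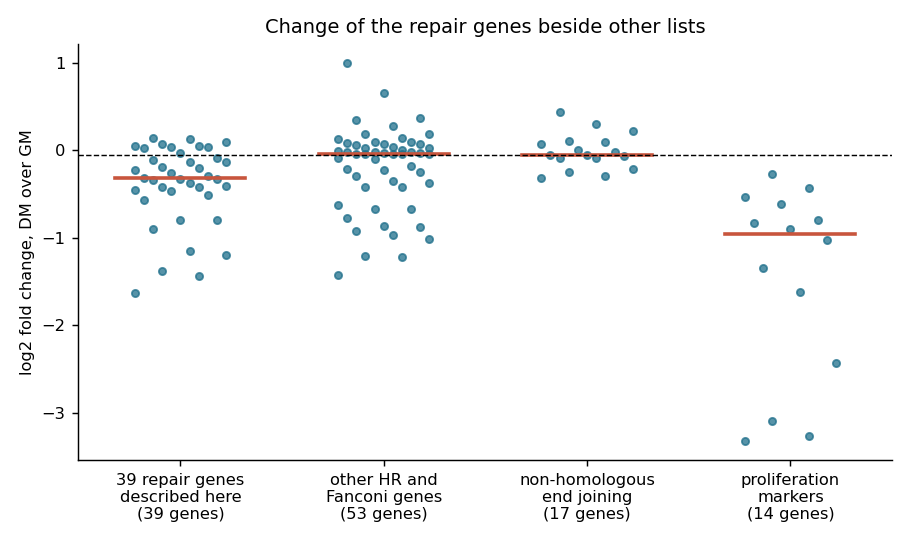
Each point is the log2 fold change of 1 tested gene, DM over GM, in 4 lists, with the list's median as a bar and the median of all genes as the dashed line. The medians are -0.32 for the 39 repair genes, -0.05 for the other recombination and Fanconi genes and for end joining, and -0.96 for the proliferation markers.

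The m6A peaks of these mRNAs were taken from the list of each group, which the authors called on the pooled libraries, so each peak has 1 fold enrichment of precipitated over input reads per group and no replicate error. A peak was present in GM for 28 of the 39 genes (71.8%) and in DM for 30 (76.9%), close to the 70.9% and 78.7% of all genes tested. The GM list held 52 peaks in these genes and the DM list 65. A false discovery rate under 0.05 was given for 47 and 58 of them. Their median fold enrichment was 2.62 in GM and 2.79 in DM, against 3.27 and 3.38 over all peaks. More of them were annotated to exons outside the UTRs than among all peaks, with 53.8% against 41.3% in GM and 58.5% against 36.5% in DM. In the 3′ UTR lay 38.5% of them in GM and 32.3% in DM, against 42.7% and 45.3% of all peaks.

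Many peaks of the BRCA mediators lay in exons outside the UTRs. In BRCA2, 3 of 4 GM peaks lay in exon 4 of the 20 exons of the annotated transcript, and 3 of 6 DM peaks did. All 3 BRCA1 peaks of either list lay in exon 1 of a 14-exon transcript model, within chr19:43111465-43114695, far inside the gene. In PALB2, 3 of the 4 GM peaks lay in exon 4 of 13. Of its 3 DM peaks, 1 was annotated to exon 4 and the others to the 3′ UTR and the 5′ UTR. The one annotated to the 5′ UTR was 1461 exonic nt long and overlapped 3 GM peaks, so it also covered part of exon 4. BARD1 carried a peak in exon 4 of 11 in both lists. FANCD2, FANCF, FANCG, ATM and RMI2 were among the genes with a peak annotated to the 3′ UTR in both lists. FANCL, UBE2T, RAD51B, RAD51C and CHEK1 had no peak in either list, although FANCL was among the most abundant of the set.

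Between the lists, 27 peaks in 17 genes could be paired one to one, and 19 of the 27 pairs differed by no more than 1.5-fold. In 6 pairs the fold enrichment was over 1.5 times higher in DM and in 2 over 1.5 times lower, compared with 14.2% and 10.8% of all pairs. The median log2 ratio was 0.24, against 0.07 for all pairs. The DM peak was the longer in 19 pairs and the GM peak in 7, and in all 6 pairs with a higher value in DM the DM peak was the longer. Over all peaks of the lists DM peaks were longer too, with a median of 421 exonic nt against 352 nt in GM. For the peaks of the set the medians were 300 and 256 nt. The share of longer DM peaks among all pairs was not counted.

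The largest difference upward was in a BLM peak annotated to the 3′ UTR. There the fold enrichment was 2.07 in GM (chr21:21840628-21840867, 240 exonic nt) and 18.6 in DM (chr21:21840568-21847018, 629 exonic nt), while the input level of BLM was 2.08 and 1.30 FPKM. The DM peak had 3 exon blocks and shared only 38.2% of its length with the GM peak. The false discovery rate of that GM peak was 0.011. In BRCA2 a peak in exon 4 went from 1.55 to 4.34 as its exonic length went from 91 to 1049 nt, and the peak that begins at exon 18 went from 3.69 (810 nt) to 5.96 (929 nt). The GM peak in exon 4 had a false discovery rate of 0.0646 and covered 8.67% of its DM partner. In BRCA1 the fold enrichment went from 1.51 (61 nt) to 2.43 (808 nt) and from 1.82 (300 nt) to 2.86 (599 nt). These GM peaks covered 7.55% and 50.1% of their DM partners. The other BLM pair, which begins at exon 6 in GM and exon 5 in DM, went the other way, from 2.69 (778 nt) to 2.52 (869 nt). The remaining pair, listed under FANCM, went from 10.2 to 16.2.

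The 2 pairs in the other direction were both annotated to 3′ UTRs. FANCG, a subunit of the core complex, had the highest fold enrichment of the set, 25.0 in GM, and 9.16 in DM over an identical extent of 478 exonic nt (chr8:59337760-59338365). Its input level was 6.17 ± 0.330 FPKM in GM and 6.43 ± 0.107 FPKM in DM, so the peak value differed 2.73-fold at nearly the same mRNA level. In BARD1 the fold enrichment was 3.18 in GM and 2.00 in DM, whereas its exon 4 peak went from 2.86 to 4.13, within 1.5-fold.

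**Figure D5:**
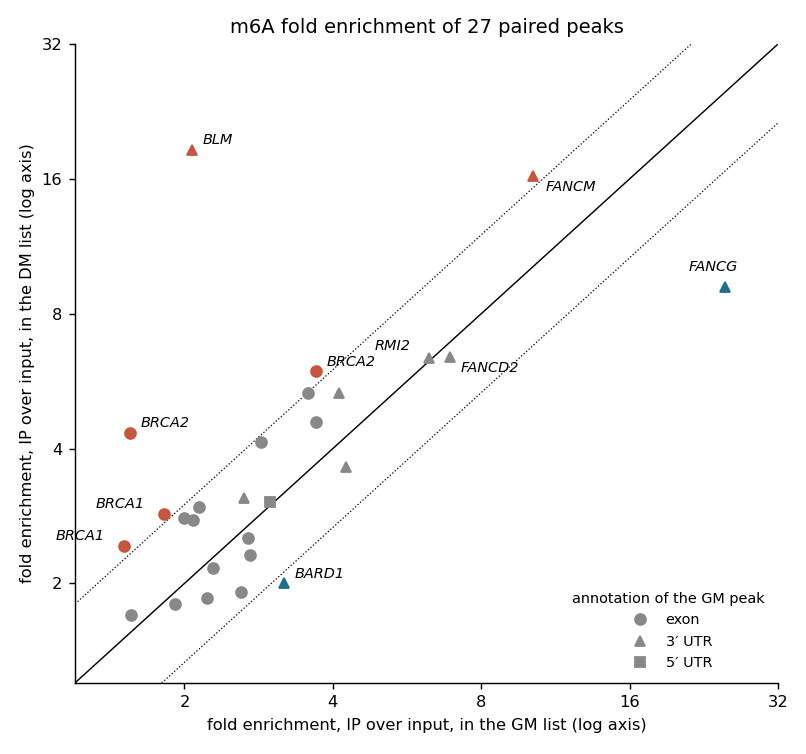
The fold enrichment of 27 paired m6A peaks of the repair genes is plotted for the GM list (x) against the DM list (y), both on log axes, with equality as the solid line and 1.5-fold as dotted lines. BLM lies highest above the line and FANCG furthest below it, while the peaks of FANCD2 and RMI2 annotated to the 3′ UTR lie near equality.

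Of the 8 genes whose mRNA fell, 4 had a paired peak, 6 pairs in all. The peak of FANCD2 annotated to the 3′ UTR had a fold enrichment of 6.90 in GM (661 exonic nt) and 6.39 in DM (391 nt). The mRNA of FANCD2 fell 5.54-fold. The RMI2 peak with this annotation, whose 2 blocks span most of the gene, had 6.27 (1340 nt) and 6.38 (1310 nt), while the mRNA fell 2.15-fold. The peak of RAD54L at its last exons went from 2.72 to 2.31, with a false discovery rate of 0.103 in DM. The first BRCA1 pair had 1.56 in GM (150 nt) and 1.70 in DM (121 nt), with only 31 nt shared, and the other BRCA1 pairs are given above. RAD51AP1 and EXO1 had peaks in both lists that did not overlap, FANCI had a single weak peak of 1.56 in DM, and CHEK1 had none. The EXO1 peaks of the DM list, at 7.45 and 4.26, stood on an input level of 0.141 FPKM and had false discovery rates of 0.0447 and 0.196.

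A further 11 GM peaks and 30 DM peaks of the set had no counterpart in the other list, which was 21.2% and 46.2% of them, against 14.7% and 28.7% of all peaks of the lists. Those of DM had a median fold enrichment of 2.04 and lay in 19 genes, and those of GM had a median of 2.41 and lay in 10. The highest were in XRCC2, with 10.9 in the 3′ UTR in GM and 9.58 in DM at another position, on input levels of 0.721 and 0.298 FPKM. By gene name, CHEK2 (5.99), FANCC (1.67), RBBP8 (2.41) and RAD51D had peaks in GM only, and ATR (1.60), FANCI (1.56), NBN (1.33), RAD54B (2.04 and 2.07), RMI1 (1.46 to 2.05) and TOPBP1 (1.28 and 2.04) in DM only. The NBN peak had a false discovery rate of 0.119, and an RMI1 peak of 1.46 had 0.116. Other peaks of 1 list stood in genes that had peaks in both: XRCC3 in GM at its 5′ UTR (8.71 and 7.62), BLM in DM at its 5′ UTR (4.79), AUNIP in DM at its 5′ UTR (4.87) and in GM at its 3′ UTR (2.39), and XRCC2 in DM at its 5′ UTR (6.39). The XRCC3 peaks at the 5′ UTR had false discovery rates of 0.0724 and 0.13, on an input level of 0.635 FPKM. The rest, in BARD1, BLM, BRCA2, EME1, EXO1, FANCA, FANCF, FANCM, PALB2, RAD50, RAD51AP1 and XRCC2, were outside 5′ UTRs.

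Neighbouring and overlapping genes bear on several of these names. The 5.08 peak in the 3′ UTR of RAD51D in GM was overlapped in DM by a peak of 4.83 listed under a microRNA gene inside RAD51D, and the GM peak of RBBP8 was covered by a DM peak of 2.58 listed under another microRNA gene within its span. That microRNA gene is on the opposite strand to RBBP8, and the GM list holds a peak of 1.53 under it as well. The lists give only the strand of the listed gene, so the strand of these peaks is not known. Counting both DM peaks to the genes they lie in gave 32 genes with a DM peak. The RAD54B peaks lay in exons of FSBP, and all peaks listed under FANCM lie where another gene overlaps it on the opposite strand, 1 of them in GM and 2 in DM in exons of that gene. The FANCM pair at 10.2 and 16.2 lies in a 3′ UTR whose gene the lists do not name. The stronger MUS81 peak, at 5.69 and 5.61, starts at the last bases of MUS81 and lies almost wholly on EFEMP2, an opposite-strand extracellular matrix gene with 70.1 FPKM in GM. The CHEK2 peak of the GM list, 61 exonic nt at the 5′ UTR, overlies HSCB on the opposite strand. HSCB had 8.37 FPKM in GM, where CHEK2 had 2.43 FPKM. Without peaks that overlie another gene, 25 genes had a peak in GM and 27 in DM, and 5 pairs were higher and 2 lower in DM.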

How the data were processed

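The authors mapped strand-specific poly(A) libraries to the ARS-UCD1.2 build using HISAT2. The deposited gene table holds FPKM made by the authors with StringTie for the 6 input libraries. The deposited peak lists, 1 per group, were called by the authors with exomePeak on pooled libraries and annotated with ChIPseeker. The authors' fold enrichment divides IP by input in a peak, and their deposited score column holds the authors' unadjusted p-value, next to deposited log10 values of that p-value and of its false discovery rate. Read counts per library are not in the tables used, so the depth behind an FPKM is unknown and precision comes from 3 libraries per group. No column of per-sample values was left unused.

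Values of log2(FPKM + 1) were fitted using limma 3.58.1 (R 4.3.3), with a variance trend and no covariate, over 12302 genes whose mean reached 0.5 FPKM, two-sided. No count model was run, since the values are not counts. Peaks were paired in Python 3.11.15 with pandas 2.3.3 where exon blocks overlapped by at least 1 base, 1 GM peak with 1 DM peak, on the strand of the listed gene. Figures used matplotlib 3.10.9. Both steps were tested on simulated data.

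The 39 genes, the comparison lists and the rules were chosen with earlier results of these data known. Called genes are given in full. Of the others, each role's largest rise, largest fall and smallest change were named by rule, and further members were named with their values seen. Peaks past 1.5-fold, peaks in 1 list and the 3 genes with the highest enrichment were named. HROB, SWI5 and PTPRC of the comparison lists were not matched by symbol. Some genes of the lists and of overlapping loci are not reported here by name. No sequence is given because no genome of this build was used. Alternatives covered thresholds, pseudocount, filter, scaling, variance model, a replicate block, each library left out and the peak sets.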

Additional observations from a re-analysis of the deposited data

How the results depend on the processing

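The count of 8 repair genes called lower in DM was 8 or 9 in every fit that left out 1 library and 8 with a replicate block. It was 20 with no fold minimum, 5 with a fold over 2 (without EXO1, CHEK1 and RMI2) and 15 with a pseudocount of 0.1, which weights low genes more. No repair gene was called higher under any of these settings. The median log2 fold change of -0.32 became -0.36 with a pseudocount of 0.1, -0.23 with TPM and -0.27 with median-of-ratios size factors. TPM moved the median of all genes from -0.05 to 0.06 and the share of higher calls among all calls from 41.6% to 55.5%, and 10 repair genes were then called lower and none higher. Under TPM, AUNIP, PALB2 and TOPBP1 no longer passed the adjusted p. Without the third GM library 22 genes passed it, with NBN, RBBP8, FANCF and RMI1 added and AUNIP and XRCC2 lost. XRCC2 was also lost without DM library 1 or 2, AUNIP without GM library 1, DM library 2 or DM library 3, and FANCL passed only without DM library 3. The same-numbered cultures did not deviate together (r = -0.079, -0.123 and -0.208), so the numbers were not taken as pairs, and the replicate block changed no call.

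The 6 peak pairs higher in DM became 3 with peaks of a false discovery rate under 0.001, 3 with a fold enrichment of at least 2, 3 when the overlap had to reach 50% of each peak and 2 with a ratio over 2. The stricter false discovery rate and the overlap rule each dropped the pairs with the 2 largest ratios, in BLM (8.99) and BRCA2 (2.80). The 2 lower pairs became 1 with a false discovery rate under 0.001 and 1 with a ratio over 2. The cause of these moves was not tested. The settings on peaks over other genes and under microRNA names were chosen after seeing the data. Peak values have no replicate error, and the low input level of genes such as EXO1 and XRCC2 limits theirs.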
